A study of Mus musculus with 2 samples.

Results

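Integrins are the cell-surface receptors for extracellular matrix, and laminins are a main matrix they bind. The genes described here are all non-control probes of a mouse whole-genome array whose gene name is that of an integrin alpha or beta subunit (Itga or Itgb followed by its number or letter) or of a laminin alpha, beta or gamma chain (Lama, Lamb or Lamc). Proteins that only bind integrins were left out. This gave 36 genes, 26 integrin genes and 10 laminin genes, read by 79 of the 41168 probes used, which stand for 28781 genes in all. The laminin beta chain gene Lamb1 carries an older spelling on the array that the name rule does not take, so its value is given apart and enters no count.

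The arrays measured total RNA of 2 lines of mouse neural progenitor cells of strain 129/Ola, with 1 array per line. N31Pax6 overexpresses the transcription factor Pax6, known for its roles in eye and forebrain development, and N31EGFP overexpresses the green fluorescent protein EGFP. In each line the transgene was brought into N31 by Tol2 transposon on a CAG construct, CAG being a promoter active in most cell types. N31 itself came from induced pluripotent stem cells and carries the reprogramming factors Oct3/4, Sox2, Klf4 and c-Myc under doxycycline control. Both lines therefore hold all 4 factors, and both had 24 h of doxycycline before RNA was taken. At that time the submitters saw an apparent change of shape in N31EGFP only. The comparison addresses how Pax6 bears on the mesenchymal to epithelial transition that cells pass through when reprogrammed.

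An integrin is a pair of 1 alpha and 1 beta subunit that spans the membrane, and the pair decides the ligand. Pairs with Itgb1 bind collagens, laminins or fibronectin depending on the alpha subunit, pairs with Itgav bind ligands with an arginine-glycine-aspartate (RGD) motif, pairs with Itgb2 belong to leukocytes, and the pair of Itga6 and Itgb4 anchors epithelial cells to laminin in hemidesmosomes. A laminin is a trimer of 1 alpha, 1 beta and 1 gamma chain that polymerises into basement membranes, and its alpha chain carries the main sites for integrins. Neural progenitors of the embryo rest their end feet on a laminin-rich basement membrane, and epithelial cells sit on one.

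As each line has 1 array, no difference could be set against replicates or given a p-value, and "higher" and "lower" describe these arrays. The share of spots well above background, out of 43379 without controls, was 67.2% on the N31Pax6 array and 64.7% on the N31EGFP array, and 0 were saturated. Signals below are as deposited, in the scanner software's units. Summed signals of a list add these unscaled values over its genes above background on each array, so bright probes weigh most in them. Fold values and log2 differences are N31Pax6 minus N31EGFP after each array was divided by the 75th percentile of its signals (991 for N31Pax6 and 854 for N31EGFP). The value after ± is the software's measurement error, which leaves out variation between cultures, and signals of different probes are not comparable with each other. For bright probes this error is mostly a preset 10% of the signal, and its median over genes measured on both arrays was 0.20. Over 172 probes with more than 1 spot, the difference had a median SD over spots of 0.08. Pax6 itself read 822 on the N31Pax6 array and 557 on the N31EGFP array with its brightest probe, a difference of 0.35 ± 0.20. The sources used here do not say whether its probes read the transgene, so this value checks neither the overexpression nor the labels on which every direction rests. Neural progenitor markers numbered 15 with a probe, and 13 of them exceeded background on 1 or both arrays, while Olig2 and Hes5 were above it on neither. Within the 13, 2 were at least 2-fold higher in N31Pax6 and 2 at least 2-fold lower, so markers of the lines' own cell type differed beside the integrins and laminins. Sox2, a progenitor transcription factor and also a reprogramming transgene in both lines, read 307 on the N31Pax6 array and 79.2 on the N31EGFP array (1.74 ± 0.21), and Egfr, a growth factor receptor, was higher by 1.26 ± 0.20. Slc1a3, a glial glutamate transporter, read 27.5 on the N31Pax6 array and 306 on the N31EGFP array (-3.69 ± 0.23, and -2.18 with the normexp background correction described further on), and the progenitor intermediate filament gene Nes read 1711 on the N31Pax6 array and 4678 on the N31EGFP array (-1.66 ± 0.20). Their part in the results was not tested.

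Most integrin and laminin genes lay within 2-fold between the lines, and 4 stood past it. Of the 36 genes, 28 were well above background on both arrays, 2 on the N31Pax6 array only and 6 on neither. Among these 30, Itga1 and Lama4 were at least 2-fold higher in N31Pax6, and Lama5 and Itgb4 were at least 2-fold lower. Over all 19251 genes above background on at least 1 array, 2.35% passed the rule upwards and 2.43% downwards, 4.77% in all. At 1.5-fold, 3 of the 30 were higher and 4 lower, where 5.91% of all genes passed upwards and 7.76% downwards, and at 3-fold 1 was higher and 0 lower, beside 0.857% and 0.535% of all genes. Of the genes called over the whole array, 49.2% were higher, against 59.3% when arrays were scaled by their median and 62.0% with another background correction (normexp, with quantile normalization). The median difference of the 30 genes was 0.06, beside -0.01 over all genes, and the median size of the difference was 0.33, beside 0.18 over all genes. More than 2 times the measurement error separated the arrays for 9 of the 28 genes measured on both, 4 higher and 5 lower, where 17.5% of all genes so measured passed that rule. The 9 were Itga1, Itga8, Itgb8 and Lama4 on the higher side and Itga10, Itgae, Itgb4, Lama2 and Lama5 on the lower side. As the error of bright probes is mostly preset, this rule is close to a fixed cutoff for them and does not measure reproducibility.

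**Figure D1:**
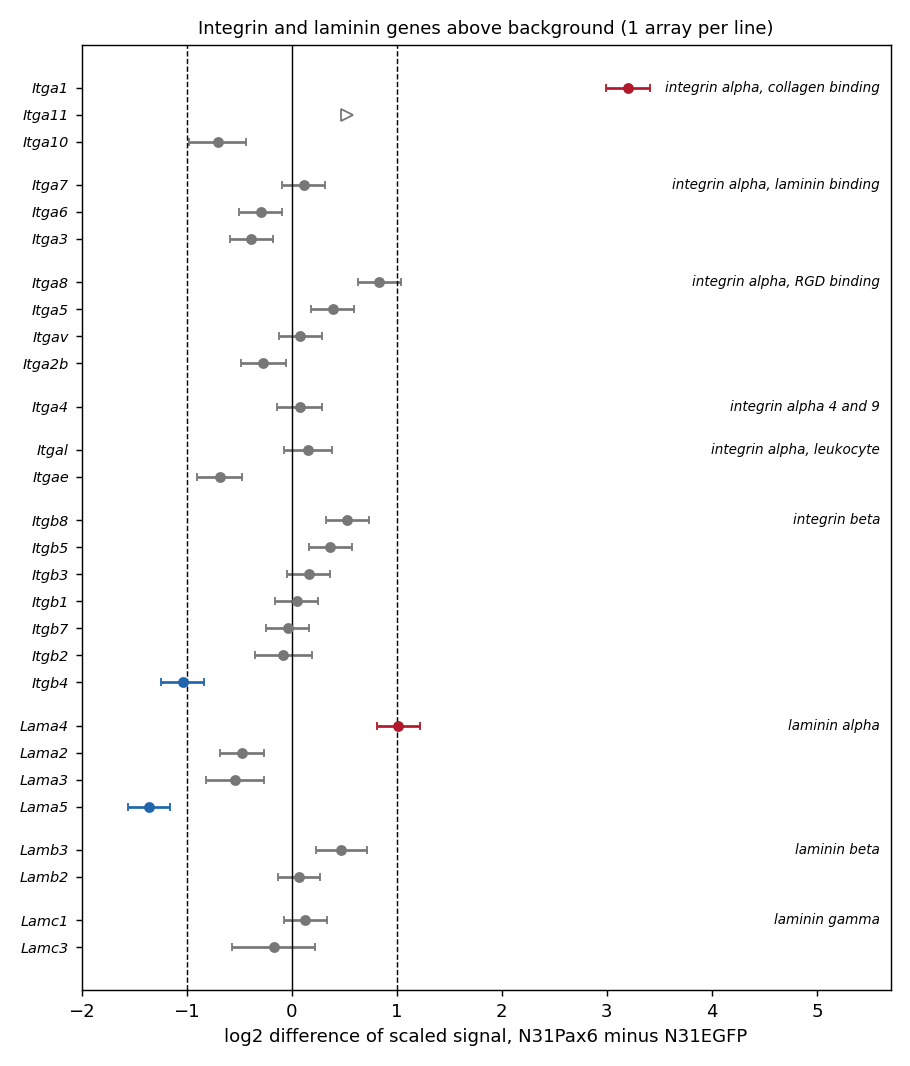
Log2 differences (N31Pax6 minus N31EGFP, horizontal axis) of the integrin and laminin genes above background, grouped by role. Points are the brightest probe of a gene with the measurement error as bars, the open triangle (Itga11) is a lower bound, dashed lines mark 2-fold, Itga9, which gave no bound, is not drawn, and 1 gene is not shown. Itga1 (3.20) lies far to the right of the others, Lama4 (1.01) and Itgb4 (-1.04) lie on the 2-fold lines, and Lama5 (-1.36) lies left of its line.

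Itga1 encodes the alpha 1 subunit, which joins Itgb1 in a receptor for collagens, above all the collagen IV of basement membranes. Its brightest probe read 1306 on the N31Pax6 array and 122 on the N31EGFP array, so Itga1 was 9.20-fold higher in N31Pax6 (3.20 ± 0.21). This probe spans 112138677 to 112140331 of chromosome 13 in the array design's build, mm7. All 4 Itga1 probes were above background on both arrays, and on each of them N31Pax6 was the higher. The second probe read 684 on the N31Pax6 array and 60.8 on the N31EGFP array (3.28 ± 0.21), and the third read 482 on the N31Pax6 array and 62.8 on the N31EGFP array (2.73 ± 0.21). The fourth, the dimmest, read 90.0 on the N31Pax6 array and 30.5 on the N31EGFP array, a smaller difference of 1.35 ± 0.23. Every Itga1 probe therefore passed 2-fold, but they did not give the same size. Only 21 of the 19251 genes, Itga1 included, were at least as far on the higher side. Itgb1, the subunit Itga1 needs, read 5839 on the N31Pax6 array and 4863 on the N31EGFP array, a difference of 0.05 ± 0.20, and the 10 spots of that probe had an SD of 0.04. Within an array, where a scaling factor cancels, the signal of Itga1 over that of Itgb1 was 8.90-fold higher in N31Pax6.

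The promoter of Itga1 is shown beside that of Lama5, since these are the 2 members farthest apart in opposite directions and both have an entry in the promoter table used. Each is 250 bases before to 50 after the gene's start on its own strand, from RefSeq, build GRCm38.p6, and 23 of the 36 genes had an entry. The Itga1 window is chr13:115101915-115102214 (minus strand) and the Lama5 window chr2:180225810-180226109 (minus strand). Capitals mark matches, on both strands, to 4 short motifs: CAGGTG or CACCTG, an E box bound by Zeb and Snail repressors, GGGCGG or CCGCCC, the GC box of Sp factors, CACGTG, the E box of Myc, and TATAAA or TTTATA, the TATA box.
Itga1: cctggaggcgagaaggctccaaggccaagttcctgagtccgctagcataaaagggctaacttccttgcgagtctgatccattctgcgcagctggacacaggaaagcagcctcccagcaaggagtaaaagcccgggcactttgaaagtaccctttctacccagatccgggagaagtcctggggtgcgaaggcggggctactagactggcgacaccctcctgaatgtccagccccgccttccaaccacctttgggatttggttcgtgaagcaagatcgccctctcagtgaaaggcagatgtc
Lama5: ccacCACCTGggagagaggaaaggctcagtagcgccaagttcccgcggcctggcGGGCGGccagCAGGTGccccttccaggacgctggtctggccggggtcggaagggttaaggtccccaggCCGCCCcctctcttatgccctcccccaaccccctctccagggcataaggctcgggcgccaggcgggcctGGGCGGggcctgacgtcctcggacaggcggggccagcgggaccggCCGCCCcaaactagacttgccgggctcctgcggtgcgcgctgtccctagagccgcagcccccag
The Lama5 window held 2 matches to CAGGTG or CACCTG, starting at bases 5 and 65 from its 5′ end, and 4 to GGGCGG or CCGCCC, at bases 55, 123, 192 and 237, with no overlap between motifs. The Itga1 window held 0 matches to any of the 4. Among 32851 promoters of this length, 20.2% held CAGGTG or CACCTG, 35.7% held GGGCGG or CCGCCC, 7.15% held CACGTG and 13.6% held TATAAA or TTTATA. G and C made up 56.7% of the Itga1 window and 72.7% of the Lama5 window, with a median of 52.7% over all promoters. A match is only a match of letters.

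No other collagen-binding alpha subunit was counted past 2-fold. Itga2, which lies next to Itga1 in the genome, was above background on neither array with either of its probes. Itga10, a collagen receptor of cartilage, read 19.5 on the N31Pax6 array and 27.4 on the N31EGFP array (-0.70 ± 0.27), and the difference was -0.15 with normexp. Itga11, a fibroblast receptor for fibrillar collagens, was above background on the N31Pax6 array only, at 18.6 against 11.2 on the N31EGFP array, which makes it at least 1.44-fold higher (0.53 ± 0.43 as log2), a bound with no upper limit. With normexp its difference was 0.01, so no direction is given for it. Genes on the other sides of Itga1 differed by less than 2-fold. Pelo, which lies inside Itga1, differed by 0.49 ± 0.20, Isl1, beyond it, by 0.62 ± 0.20, and Mocs2, on the far side of Itga2, by 0.27 ± 0.20.

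Laminin-binding alpha subunits lay within 1.5-fold. Itga6, the alpha subunit that pairs with Itgb1 or Itgb4, read 17098 on the N31Pax6 array and 18073 on the N31EGFP array (-0.29 ± 0.20), and its 3 probes lay between -0.47 and -0.29. Itga3, a laminin receptor of epithelia, read 1186 on the N31Pax6 array and 1333 on the N31EGFP array (-0.38 ± 0.20), with probes from -0.38 to -0.08. Itga7, known from muscle and glia, read 594 on the N31Pax6 array and 472 on the N31EGFP array (0.12 ± 0.20). The differences of Itga3 and Itga6 exceeded their error, and that of Itga7 did not.

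Of the RGD-binding alpha subunits, Itga8 was the one with the largest difference. Itga8, the receptor for nephronectin and fibronectin in mesenchyme and nervous system, read 2446 on the N31Pax6 array and 1183 on the N31EGFP array, which is 1.78-fold higher in N31Pax6 (0.83 ± 0.20). A second probe gave 0.92 ± 0.20 and a dimmer one 0.41 ± 0.31, so all 3 were above 0 and none reached 2-fold. Itga5, the fibronectin receptor, read 1152 on the N31Pax6 array and 758 on the N31EGFP array (0.39 ± 0.20). Itgav, which pairs with several beta subunits, read 1970 on the N31Pax6 array and 1602 on the N31EGFP array (0.08 ± 0.20), and Itga2b, the platelet subunit, read 79.5 on the N31Pax6 array and 82.6 on the N31EGFP array (-0.27 ± 0.21). Those 3 lay within 1.5-fold.

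Itga4, which binds Vcam1 and fibronectin, read 102.6 on the N31Pax6 array and 83.9 on the N31EGFP array with its brightest probe (0.08 ± 0.21). Itga9, a receptor for tenascin, read 10.3 on the N31Pax6 array and 9.80 on the N31EGFP array, close to background, and gave no bound. Neither gene showed a difference beyond its error.

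Integrins known from leukocytes gave little signal, with Itgb7 as an exception. Itgal read 59.5 on the N31Pax6 array and 46.1 on the N31EGFP array (0.15 ± 0.23), and Itgb2, its partner, 27.9 on the N31Pax6 array and 25.4 on the N31EGFP array (-0.08 ± 0.27). Itgam, Itgax and Itgb2l were above background on neither array. Itgae, whose protein pairs with that of Itgb7 and binds E-cadherin, read 61.6 on the N31Pax6 array and 85.3 on the N31EGFP array (-0.68 ± 0.21), and -0.35 with normexp. Itgb7 read 6498 on the N31Pax6 array and 5753 on the N31EGFP array, far above background on both, with a difference of -0.04 ± 0.20. The signs of Itgb2 and Itgb7 change with the scaling between arrays, so no direction is given for them. Of 14 leukocyte markers with a probe, 8 were above background on at least 1 array, none at least 2-fold different, and 6 were above it on neither (Ptprc, Lyz2, Tyrobp, Aif1, Lcp1 and Adgre1). Their summed signal above background was 813 on the N31Pax6 array and 864 on the N31EGFP array.

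Among the beta subunits, Itgb4 was lower in N31Pax6 and the brightest probes of the others lay within 1.5-fold. Itgb4 read 3055 on the N31Pax6 array and 5403 on the N31EGFP array, which is 2.05-fold lower (-1.04 ± 0.20). This probe lies at 116117288 to 116117347 of chromosome 11 (mm7). A probe shifted by a few bases gave -1.01 ± 0.20 and shares most of its sequence, so it is no independent reading, while a distant dim probe gave -0.61 ± 0.22. Itgb4 lies less than its measurement error beyond 2-fold: the difference was -0.96 after scaling by the median and -0.89 as the mean of its probes. Relative to Itga6, its only partner, Itgb4 was 1.67-fold lower within the array.

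Itgb8, which pairs with Itgav and activates latent TGF-beta in neural progenitors and glia, read 270.1 on the N31Pax6 array and 161 on the N31EGFP array (0.53 ± 0.21), and its 3 probes above background lay between 0.53 and 0.63. Itgb5 read 26519 on the N31Pax6 array and 17703 on the N31EGFP array (0.37 ± 0.20), and Itgb3, of the vitronectin receptor, 2209 on the N31Pax6 array and 1699 on the N31EGFP array (0.16 ± 0.20). Read by their brightest probes, these Itgav partners were all slightly above 0, by less than 1.5-fold, while Itgb8 passed that size as the mean of its probes (0.59) and after scaling by the median (0.61). Itgb6, the epithelial partner of Itgav, was above background on neither array with any of its 3 probes.

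**Figure D2:**
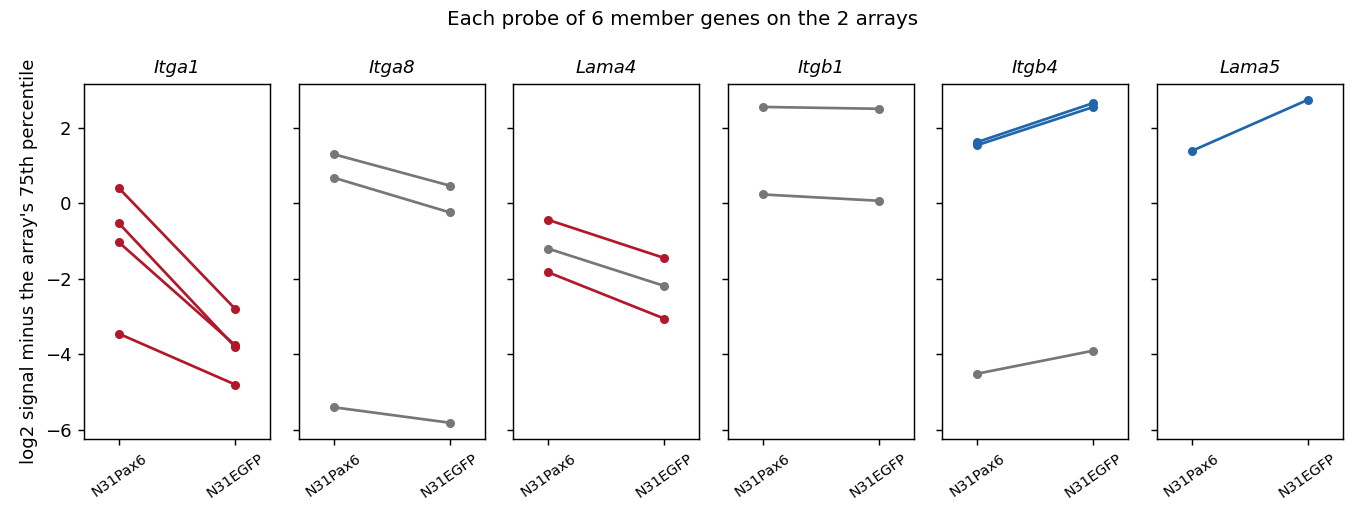
Signal of each probe measured on both arrays for 6 genes, on the N31Pax6 array (left points) and the N31EGFP array (right points), as log2 of the signal minus the array's 75th percentile. Each line is 1 probe, red at least 2-fold higher, blue at least 2-fold lower and grey within 2-fold in N31Pax6. All probes of Itga1, Itga8 and Lama4 slope down to N31EGFP, those of Itgb4 and Lama5 slope up, and those of Itgb1 differ by 0.05 and 0.17.

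The laminin alpha chains differed in opposite directions. Lama4, the chain of vascular and mesenchymal basement membranes, read 732 on the N31Pax6 array and 312 on the N31EGFP array, which is 2.02-fold higher in N31Pax6 (1.01 ± 0.20). That probe lies at 38885787 to 38885846 of chromosome 10 (mm7). The other Lama4 probes above background gave 0.99 ± 0.21 and 1.23 ± 0.21, so the 3 readings agree within their errors but straddle 2-fold, and the reported probe gave 0.96 with normexp. The probe at 0.99 spans 38885025 to 38885815 and overlaps the reported probe, so these 2 are not independent readings. A further Lama4 probe was above background on neither array (3.05 on the N31Pax6 array and 3.26 on the N31EGFP array). Lama5, the chain of most epithelial basement membranes, read 2594 on the N31Pax6 array and 5734 on the N31EGFP array, which is 2.56-fold lower in N31Pax6 (-1.36 ± 0.20). Lama5 has 1 probe, on chromosome 2, whose accession had no match in the gene table, so its identity rests on the array's own name. The signal of Lama4 over that of Lama5 was 5.18-fold higher in N31Pax6 within the array, a contrast of 2.37 ± 0.29 in which a scaling factor cancels.

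Lama2, the chain of muscle and peripheral nerve, read 97.8 on the N31Pax6 array and 117 on the N31EGFP array as the mean of 9 spots (-0.48 ± 0.21), with an SD over spots of 0.06 and a second probe at -0.36. It was lower by 1.39-fold, and -0.26 with normexp. Lama3, of the laminin that anchors skin epithelium, was dim and its 2 probes disagreed: 23.6 on the N31Pax6 array and 29.6 on the N31EGFP array for the brighter (-0.54 ± 0.28), and 18.4 on the N31Pax6 array and 15.6 on the N31EGFP array for the other (0.02 ± 0.34). Lama1, the chain of early embryonic basement membranes, was above background on neither array.

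The beta and gamma chains described here, which alpha chains share, lay within 1.5-fold. Lamc1, the gamma chain of most laminins, read 22802 on the N31Pax6 array and 17979 on the N31EGFP array (0.13 ± 0.20). Lamb2 read 1508 on the N31Pax6 array and 1238 on the N31EGFP array (0.07 ± 0.20), and Lamb1, outside the counts, 10804 on the N31Pax6 array and 9784 on the N31EGFP array (-0.07 ± 0.20). Relative to Lamc1 within the array, Lama5 was 2.80-fold lower and Lama4 1.85-fold higher in N31Pax6. Lamb3, a beta chain that joins Lama3, read 55.3 on the N31Pax6 array and 34.3 on the N31EGFP array (0.47 ± 0.24). Lamc3 read 13.2 on the N31Pax6 array and 12.8 on the N31EGFP array, close to background (-0.17 ± 0.40).

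The differences of Lama4, Lama5 and Itgb4 were not shared by their measured neighbours in the genome. The 3 measured genes beside Lama4 (Marcks, Fam229b and Tube1) lay between -0.26 and -0.06, the 3 beside Itgb4 (Sap30bp, Galk1 and H3f3b) between -0.21 and 0.09, and the 4 beside Lama5 (Osbpl2, Adrm1, Rps21 and Cables2) between -0.05 and 0.17.

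Genes whose products link integrins to the cell interior, or accompany them in the membrane, lay within 2-fold. A list of 40 genes of the adhesion machinery, from talins and kindlins that activate integrins to focal adhesion kinases, adaptors and tetraspanins, had 38 above background, of which 0 passed 2-fold in either direction, with a median of -0.02. With 4.77% of all genes past 2-fold, a count of 0 among 38 is near the background. They ran from Parvg at -0.52 ± 0.27, a parvin of blood cells that was dim here, to Tln2, a talin, at 0.60 ± 0.20. As the mean of its probes Tln2 differed by 0.31. The main talin and kindlin genes Tln1 and Fermt2 differed by 0.08 and -0.02, the integrin-linked kinase gene Ilk by 0.08, and the focal adhesion kinase gene Ptk2 by -0.11.

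Matrix genes that integrins bind, or that share the basement membrane with laminins, moved in both directions. Of 41 such genes, 33 were above background, 3 were at least 2-fold higher in N31Pax6 and 4 at least 2-fold lower, with a median of -0.02. Over all genes, 2.35% passed 2-fold upwards and 2.43% downwards. Thbs1, a matricellular protein that binds several integrins, was higher by 2.14 ± 0.21 (721 on the N31Pax6 array and 141 on the N31EGFP array), and Col3a1, a fibrillar collagen, by 1.93 ± 0.20. Ntn1, a laminin-related guidance molecule, was above background on the N31Pax6 array only (at least 3.49-fold higher). On the lower side Col1a1 differed by -2.33 ± 0.21 and Col1a2, with which it forms collagen I, by -1.18 ± 0.20. Bcam, a surface receptor for Lama5, was above background on the N31EGFP array only, at 5.75 on the N31Pax6 array against 30.6 on the N31EGFP array, or at least 3.82-fold lower. Npnt, the nephronectin that Itga8 binds, read 25.3 on the N31Pax6 array and 46.9 on the N31EGFP array (-1.11 ± 0.24), so this ligand was lower where its receptor was 1.78-fold higher. With normexp, Bcam, Npnt and Ntn1 were within 2-fold (-0.42, -0.32 and 0.59). The core basement membrane genes Col4a1, Col4a2, Nid1 and Agrn lay within 2-fold, at 0.21, 0.34, 0.51 and -0.40. Others of the same families were also within 2-fold but lower: Col4a6 at -0.93 ± 0.20, Nid2 at -0.75 ± 0.20 and Col4a5 at -0.57 ± 0.21. Col4a4 differed by -0.02 ± 0.20.

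**Figure D3:**
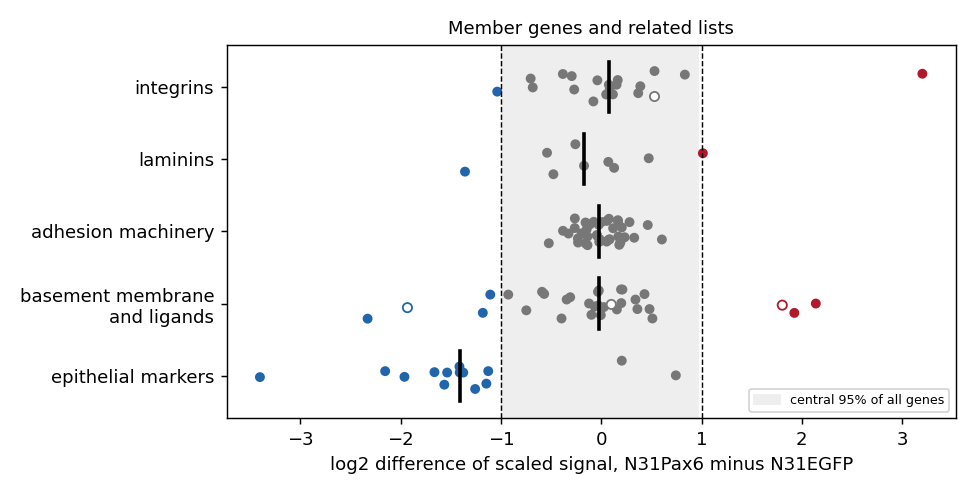
Log2 differences (N31Pax6 minus N31EGFP) of each gene above background in 5 groups: integrins, laminins, adhesion machinery, basement membrane and ligand genes, and epithelial markers. Filled points were measured on both arrays, open points are bounds, black bars are medians, dashed lines mark 2-fold and the grey band holds the central 95% of all genes (-0.99 to 0.96). The 38 adhesion machinery genes stay inside the band, and the epithelial markers lie mostly left of it.

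Most epithelial markers were lower in N31Pax6 together with Itgb4 and Lama5. Of 16, 14 were above background, 12 were at least 2-fold lower and 0 passed 2-fold upwards, with a median of -1.41, and Cldn4 and Esrp1 were above background on neither array. With normexp 9 were at least 2-fold lower, with a median of -1.07, as Krt7, Cldn3 and Cldn6 came within 2-fold (-0.31, -0.68 and -0.77). Over all genes, 2.43% passed 2-fold downwards, and 0.561% with normexp. Cdh1, the gene of E-cadherin and ligand of the integrin of Itgae, read 65.3 on the N31Pax6 array and 594 on the N31EGFP array (-3.40 ± 0.21, and -2.53 with normexp). Next in size were Lsr, of tricellular junctions, at -2.15 ± 0.20, the adhesion molecule gene Epcam at -1.96 ± 0.21, the keratin gene Krt19 at -1.66 ± 0.20, the claudin gene Cldn3 at -1.56 ± 0.22 and the keratin gene Krt8 at -1.54 ± 0.20. St14 and Cldn7 went the other way. St14 read 103.6 on the N31Pax6 array and 53.3 on the N31EGFP array (0.74 ± 0.21, and 0.42 with normexp), and Cldn7 differed by 0.20 ± 0.26. The summed signal of the markers above background, not scaled, was 28837 on the N31Pax6 array and 69267 on the N31EGFP array. The single gene Krt18 gave 18657 of it on the N31Pax6 array and 42773 on the N31EGFP array. The part of these markers in the values of Itgb4 and Lama5 was not tested, and fewer cells of a type and less RNA per cell cannot be told apart in such samples.

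Beside the higher Itga1 and Lama4, fibroblast and mesenchymal markers were mixed: of 16, all above background on at least 1 array, 4 passed 2-fold upwards and 2 downwards, with a median of 0.19. Over all genes, 2.35% passed upwards and 2.43% downwards. Fap, a surface protease of activated fibroblasts, was above background on the N31Pax6 array only, at 231 against 7.56 on the N31EGFP array, or at least 19.2-fold higher. Dcn, a collagen-binding proteoglycan, read 1644 on the N31Pax6 array and 184 on the N31EGFP array (2.95 ± 0.21), and Pdgfra, a growth factor receptor of mesenchyme, read 188 on the N31Pax6 array and 43.0 on the N31EGFP array (1.92 ± 0.22). Zeb1, a repressor of epithelial genes, was higher by 1.03 ± 0.20. On the lower side, the actin-binding protein gene Tagln differed by -1.75 ± 0.20, and Thy1, a surface glycoprotein, was above background on the N31EGFP array only, at least 4.40-fold lower. With normexp Fap differed by 1.92, Pdgfra by 1.13 and Thy1 by -0.34. The summed signal of the list was 387959 on the N31Pax6 array and 286746 on the N31EGFP array, of which the single gene S100a4, within 2-fold, gave 231549 on the N31Pax6 array and 162949 on the N31EGFP array.

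Endothelial cells also express Lama4, and of 10 endothelial markers 6 were above background, none at least 2-fold different, and Cdh5, Pecam1, Tie1 and Emcn were above it on neither array. Smooth muscle and pericyte markers, of which 9 of 9 were above background, had 0 past 2-fold upwards and 3 downwards. Over all genes, 2.35% passed upwards and 2.43% downwards. The 3 were Cnn1, a calponin, at -2.02 ± 0.21, Tagln again, and the muscle intermediate filament gene Des at -1.54 ± 0.25, or -0.55 with normexp. From each of 3 further marker lists 1 gene passed 2-fold, beside 4.77% of all genes. Nfe2, of 7 megakaryocyte markers above background, differed by -1.54 ± 0.21. Ngfr, of 6 Schwann cell and neural crest markers, differed by 1.24 ± 0.20, but by 0.34 as the mean of its probes. Zfp42, of 7 pluripotency markers, differed by -1.49 ± 0.21. Nfe2 and Zfp42 came within 2-fold with normexp (-0.80 and -0.81). The part of these cell types was not tested.

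**Figure D4:**
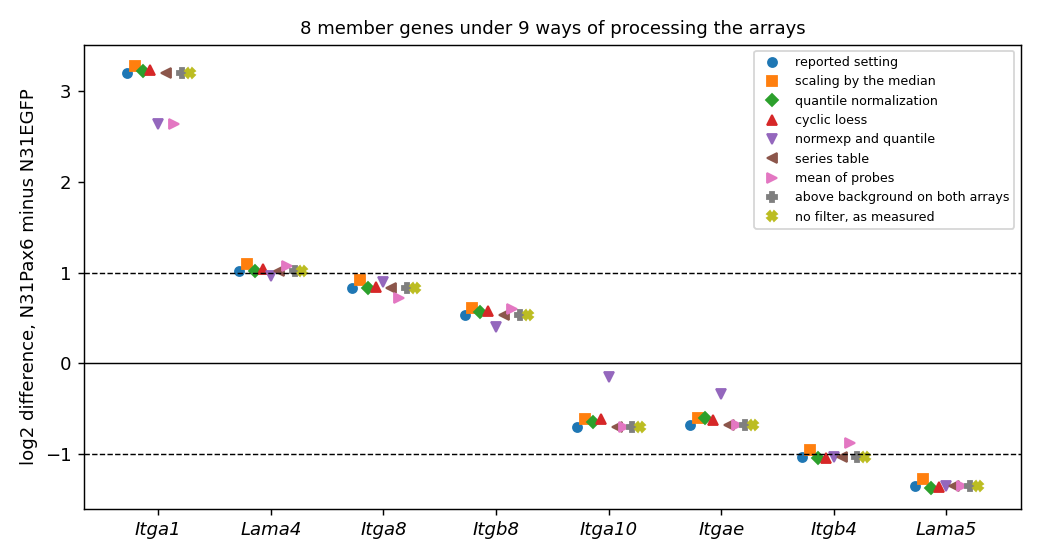
Log2 differences (N31Pax6 minus N31EGFP, vertical axis) of 8 member genes under 9 ways of processing the same 2 arrays, with dashed lines at 2-fold. Itga1 ranges from 2.64 to 3.28 and Lama5 from -1.37 to -1.28, Lama4 and Itgb4 straddle the 2-fold lines, and Itga10 and Itgae move towards 0 with normexp background correction.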

How the data were processed

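Total RNA of 2 lines was labelled with Cy3 and read on 1 Agilent array each, per the labels' protocols. The deposited intensity values are signals from Agilent Feature Extraction 10.7.3.1, corrected by it for background and for trends across the array, per the file headers. The deposited flags mark spots well above background (by 13 of its SDs), saturated or outlying. The series table deposited by the authors repeats these intensity values. Outlier spots (52 on the N31Pax6 array, 51 on the N31EGFP array) and control spots were left out. Log2 signals were centred on each array's 75th percentile, spots of a probe averaged, and a gene took its brightest probe above background on at least 1 array. A probe above background on 1 array gives a bound, "at least", set against the dim probe's reading or, if that is lower, the lowest signal above background (9.72 on the N31Pax6 array, 10.3 on the N31EGFP array). Array names were updated by accession for 55.7% of probes, and 49 of the 79 integrin and laminin probes matched, all under the same symbol. The reported probes of Itga6, Itga10, Itgav, Itgb3, Itgb8, Lama3 and Lama5 had no match, so their identity rests on the array's own names. Coordinates are the array design's (mm7). Exons are not stated, as no mm7 annotation was at hand.

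The members, gene lists and rules were chosen with earlier results of these data known. Every member enters the counts, 1 of them is not reported here by name, and from each other list up to 6 genes past 2-fold were named, largest first, the basement membrane list with its 7. Further genes were named after their values were seen. The 2 arrays shared a slide and scan. Alternatives were median, quantile and cyclic loess scaling, normexp (offset 50, limma 3.58.1), the series table, the mean of a gene's probes, other filters and other fold rules. The call rule was tested on simulated data.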

Additional observations from a re-analysis of the deposited data

How the results depend on the processing

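No paired analysis was possible because each line has 1 array. The count of members past 2-fold upwards was 1 with normexp, where Lama4 gave 0.96, in place of 2. It was 3 with no filter on dim probes, where Itgam, below background, was added. Over all genes, 0.914% passed upwards with normexp and 4.54% with no filter, in place of 2.35%. The count at least 2-fold lower was 1 in place of 2 after scaling by the median and with the mean of a gene's probes, where Itgb4 gave -0.96 and -0.89, and 4 with no filter on dim probes, where Lama1 and Itga2, both below background, were added. The share of all genes past 2-fold downwards, 2.43%, became 1.92% with median scaling, 2.37% with the mean of probes and 4.28% with no filter. A rule of at least 1.5-fold gave 3 higher and 4 lower of 30, where 5.91% and 7.76% of all genes passed it, and a rule of at least 3-fold gave 1 higher and 0 lower, beside 0.857% and 0.535% of all genes. The adhesion machinery list had 1 gene past 1.5-fold upwards, Tln2 by its brightest probe, and 0 downwards. The basement membrane and ligand list had 7 genes at least 2-fold different, 4 with normexp and 11 with no filter on dim probes. The median of the members ranged from 0.01 to 0.14. Of 238 values of single members under alternatives, 231 lay within their measurement error of the reported value, 7 moved further and 0 of the genes past 2-fold changed sign. Much of this was fixed in advance, so the 231 do not measure stability. The series table repeats the signals, and the filters and the mean of probes often leave a gene's value as it was. Scaling by the median shifts measured genes alike, by less than their error. The values that moved were those of Itga1, Itga10, Itga11, Itgae, Lama2 and Lama3 with normexp, and of Itga1 as the mean of its probes. The series table gave the same values as the scanner files. The number of arrays limits every comparison, and signals near background limit Itga9, Itga10, Itga11, Lama3 and Lamc3.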
